A study of Mus musculus with 2 samples.

Results

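The MYC network is a set of transcription factors that bind DNA as pairs. MYC and MYCN pair with MAX and activate genes of growth and ribosome production at sites called E-boxes, while MXD1, MXI1, MXD3, MXD4 and MNT also pair with MAX and recruit the SIN3 and histone deacetylase co-repressors to the same kind of site. MLX pairs with MXD1, MXD4, MNT and the glucose-responsive factors MLXIP and MLXIPL, which links the network to nutrient supply. The 9 genes described here, Myc, Mycn, Max, Mxd1, Mxi1, Mxd3, Mxd4, Mnt and Mlx, were taken by symbol, as all probe sets annotated with exactly 1 of those symbols. They gave 21 probe sets of 45101 on the array, and 9 of 18193 genes with a probe set.

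Expression was measured on 2 single-colour arrays, each with RNA of mouse cells labelled as lymphoma. One sample was grown in medium containing serum and the other was a co-culture with endothelium, the inner lining of vessels. The labels give no line, genotype, strain, culture time or medium of the co-culture, no species of the endothelial cells, and no step that separated the 2 cell types. There is 1 array per group, so no difference below has a test, a p-value or an SD between cultures, and the number of arrays limits the precision.

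An intensity of 44.3, the median of all values of both arrays, served as the floor. A gene above it on at least 1 array is called measured and is represented by its brightest probe set. A log2 difference, co-culture minus serum, of 1 or more in size is called at least 2-fold, after values below the floor were raised to it. The error available is the pooled SD of log2 differences between probe sets of 1 gene, 0.60 over 5478 genes, which covers probe error and not the spread between cultures. The brightest of the 27 bacterial controls outside the spike mix had an intensity of 21.6 in serum culture and 21.7 in co-culture. Intensities of different probe sets are not on a common scale, so an order of intensities below is not an order of RNA levels between genes.

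The label was set against marker genes. Among 14 B-lineage genes on the array, 5 were measured. The highest intensity among them was 161, of Ebf1 in serum culture (85.3 in co-culture). Blk went the other way, with 27.0 in serum culture and 126 in co-culture, at least 2.84-fold higher. Of 15 pan-leukocyte genes 5 were measured. The highest intensity was 139, of Cd53 in serum culture (64.3 in co-culture), and Coro1a had 75.5 and 125. Ptprc, which encodes CD45, had 21.5 and 3.14 on the serum and co-culture arrays, and Pax5 had 2.52 and 2.16. The cell type named by the labels is therefore not borne out by most of its defining markers, and the arrays are called by their labels. Of 19 endothelial markers 4 were measured. Egfl7 had 473 in serum culture and 532 in co-culture, Eng had 36.5 and 58.5, and Nos3 had 37.0 and 51.5. Flt1 had 93.3 and 26.4, at least 2.11-fold lower in co-culture. Pecam1, Cdh5, Kdr, Tek and Tie1 were below the floor on both arrays. The 3′ to 5′ intensity ratio, a sign of RNA length, was higher in serum culture for each of 3 control genes: 3.56 against 2.05 for beta-actin, 2.54 against 1.88 for Gapdh, and 13.2 against 5.03 for the transferrin receptor. Of the erythroid markers, Slc4a1, the anion exchanger of red cells, had 11.0 in serum culture and 642 in co-culture, at least 14.5-fold higher. Klf1, the only other measured erythroid marker, went the other way, with 85.8 and 6.90. Of the epithelial markers, Epcam had 59.6 and 128, 2.14-fold higher (0.10 on the log2 scale by its other measured probe set). The other measured epithelial markers were Cldn3, with 50.5 and 70.4, and Esrp1, which was lower with 305 and 217. The rest of both lists were below the floor on both arrays. The part of these gaps in the differences below was not tested. In such bulk RNA, fewer cells of a type and less RNA per cell cannot be told apart.

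RefSeq promoter windows were found for 8 of the 9 members. They are the GRCm38.p6 sequences from 250 bases before to 50 bases after a gene's start, searched for the E-box CACGTG, which reads the same on both strands. The windows of 4 members are shown because they hold the E-box that MYC, MXD and MLX pairs bind, and Mxd3 is shown beside them because it had the greatest difference among the members. The printed part runs 5′ to 3′ on the gene's strand, from 250 bases before to 10 bases after the start, with CACGTG in capitals.
Max (chr12:76962239-76962498, minus strand): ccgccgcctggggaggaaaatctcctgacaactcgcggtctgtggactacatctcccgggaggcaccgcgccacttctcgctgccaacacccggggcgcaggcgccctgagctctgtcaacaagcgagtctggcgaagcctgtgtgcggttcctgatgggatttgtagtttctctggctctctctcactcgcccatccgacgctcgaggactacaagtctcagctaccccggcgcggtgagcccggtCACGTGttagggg
Mnt (chr11:74830674-74830933, plus strand): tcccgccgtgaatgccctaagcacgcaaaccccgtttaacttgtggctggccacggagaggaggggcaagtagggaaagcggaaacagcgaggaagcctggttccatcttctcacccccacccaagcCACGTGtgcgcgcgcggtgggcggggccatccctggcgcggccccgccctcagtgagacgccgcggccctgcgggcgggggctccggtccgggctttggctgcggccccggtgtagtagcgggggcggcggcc
Mlx (chr11:101087040-101087299, plus strand): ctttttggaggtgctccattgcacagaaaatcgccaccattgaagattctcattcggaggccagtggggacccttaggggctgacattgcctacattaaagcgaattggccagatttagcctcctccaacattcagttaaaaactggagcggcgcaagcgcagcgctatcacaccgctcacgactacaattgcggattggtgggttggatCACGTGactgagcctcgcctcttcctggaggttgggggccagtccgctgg
Mxd4 (chr5:34187701-34187960, minus strand): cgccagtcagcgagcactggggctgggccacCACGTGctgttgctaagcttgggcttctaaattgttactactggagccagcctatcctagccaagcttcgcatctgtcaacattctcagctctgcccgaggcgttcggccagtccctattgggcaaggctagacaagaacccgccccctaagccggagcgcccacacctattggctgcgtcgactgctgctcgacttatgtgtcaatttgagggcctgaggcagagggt
Mxd3 (chr13:55329722-55329981, minus strand): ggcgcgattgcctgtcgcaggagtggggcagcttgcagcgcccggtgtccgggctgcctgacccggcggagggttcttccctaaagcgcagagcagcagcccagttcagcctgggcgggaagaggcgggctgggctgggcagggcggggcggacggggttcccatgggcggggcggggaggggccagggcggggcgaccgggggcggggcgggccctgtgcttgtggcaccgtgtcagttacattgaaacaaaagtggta
The E-box begins 3 bases before the start in Max, 40 bases before it in Mlx, 123 in Mnt and 219 in Mxd4. The windows of Mycn, Mxd1, Mxd3 and all 3 starts of Mxi1 do not hold these letters, which says nothing about binding by the factors. Thus 4 of 8 members held CACGTG, against 8.09% of the 27025 genes with a window and 8.91% of protein-coding genes. Among the MYC-activated targets listed below the count was 11 of 43 genes (25.6%), among the MYC-repressed targets 4 of 17 (23.5%), and among genes of the SIN3 and histone deacetylase complex 1 of 12 (8.33%). A match is a description of sequence and not a site in these cells.

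On these arrays Max, the DNA-binding partner of MYC, was measured, as were Mlx and the repressors that pair with MAX. The member paralogues Myc and Mycn were at or near background. Of the 9 members 8 were measured, 7 in serum culture and 8 in co-culture, beside 63.5% of all genes. None of the members was at least 2-fold higher in co-culture, where 4.52% of all measured genes were. Mxd3 and Mxd4 were at least 2-fold lower, 2 of 8 measured members, where 9.97% of all measured genes were. The median log2 difference of the measured members was -0.13 and that of all measured genes was -0.06. With 8 genes, such a count describes these members only.

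**Figure D1:**
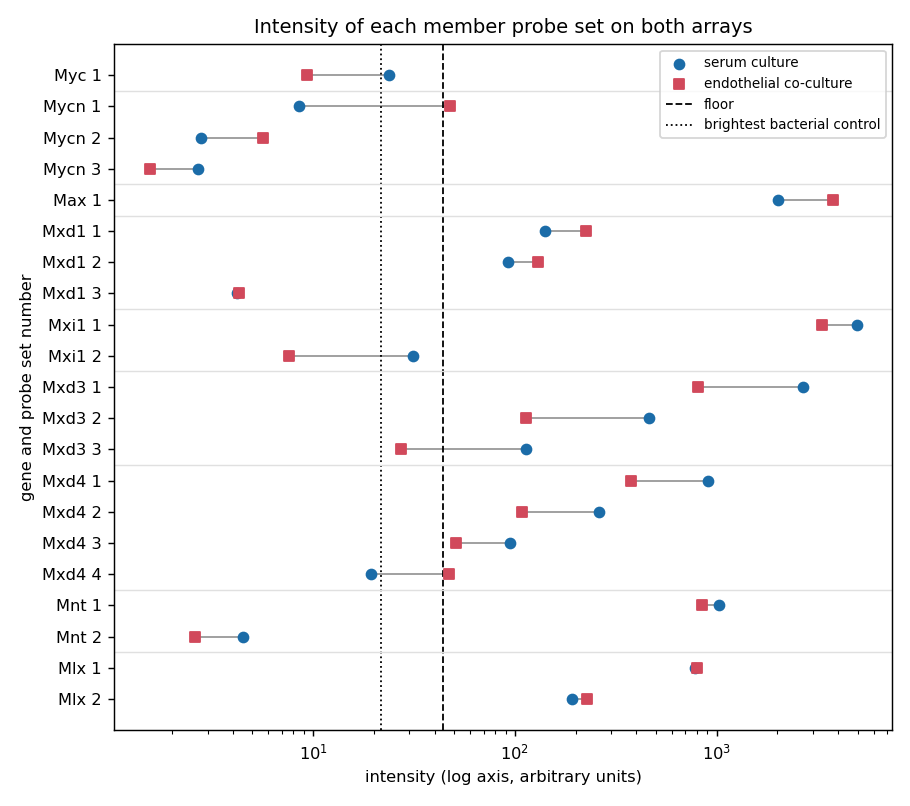
Intensity (log axis) of each of the 21 member probe sets in serum culture (circles) and the co-culture array (squares), numbered within a gene from the brightest, with the floor of 44.3 (dashed) and the brightest bacterial control of 21.7 (dotted). The Myc probe set lies below the floor on both arrays, 1 of 3 Mycn probe sets crosses it in co-culture, and the 3 Mxd3 probe sets shift to the left in co-culture.

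Myc, the broadly used paralogue, has 1 probe set. Its intensity was 23.8 in serum culture and 9.34 in co-culture, so the first lay just above the brightest bacterial control and both lay below the floor. No fold is given between values that are both below the floor. Mycn, the paralogue of embryonic and neural progenitors, has 3 probe sets. The brightest had 8.50 in serum culture and 47.5 in co-culture, just above the floor there, which gives at least 1.07-fold. The other probe sets of Mycn had 2.80 and 2.68 in serum culture and 5.64 and 1.55 in co-culture. With the floor lowered to percentile 25 of all values (12.8) the brightest probe set of Mycn had a log2 difference of 1.89 and passed 2-fold, so the result for Mycn depends on where background is set. Mycl, the third paralogue and not a member, had 69.5 and 62.4. An intensity near background bounds the RNA that the probe set sees and does not show that a gene is silent.

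Max, the shared partner with which MYC and MXD proteins bind DNA, has 1 probe set. It had 2024 in serum culture and 3782 in co-culture, 1.87-fold higher in co-culture and a log2 difference of 0.90. This is short of 2-fold, and it is 1.51 times the SD between probe sets of a gene. Scaled to the bacterial hybridisation spikes instead of the deposited scale, Max had 0.70, so the direction held under that scaling.

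The MAX-bound repressors did not shift together. All 5 were measured on both arrays. Of these 5, 2 were at least 2-fold lower in co-culture and 0 higher, beside 9.97% and 4.52% of all measured genes. The log2 differences of the 5 ran from -1.72 to 0.68 with a median of -0.58. By probe set, 11 of the 14 for these 5 genes were measured. Of the 11, 5 were at least 2-fold lower and 0 higher, beside 8.06% and 8.16% of all measured probe sets. These 5 belong to Mxd3 and Mxd4 alone. Probe sets of 1 gene on the same arrays are not separate observations, so the 5 describe only those 2 genes.

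Mxd3, a repressor known from dividing progenitor cells, where it appears in S phase, had the greatest difference. Its brightest probe set had 2673 in serum culture and 810 in co-culture, 3.30-fold lower in co-culture. The second had 461 and 114, which is 4.05-fold lower. The third had 113 in serum culture and 27.3, below the floor, in co-culture, so it was at least 2.56-fold lower. All 3 probe sets therefore lay past 2-fold in the same direction. Among the 2404 genes with at least 3 measured probe sets, 14 (0.582%) had every one at least 2-fold lower. The log2 difference of Mxd3 was -1.72, and it ran from -1.92 to -1.66 over the 9 alternative settings.

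Mxd4, a repressor of cells that leave division and differentiate, was 2.41-fold lower by its brightest probe set, with 905 in serum culture and 376 in co-culture. The second probe set had 261 and 108, which is 2.42-fold lower. The third had 94.3 and 51.3, a log2 difference of -0.88, short of 2-fold. The fourth went the other way near background, with 19.4 and 46.9. The mean over all 4 was a log2 difference of -0.83, which ends the 2-fold call for Mxd4.

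Mxd1, the founding repressor, induced as many cell types mature, had 140 in serum culture and 226 in co-culture by its brightest probe set and 92.5 and 130 by the second. Their log2 differences were 0.68 and 0.50, both positive and short of 2-fold. The third probe set of Mxd1 was near 4 on both arrays (4.19 and 4.31). Mxi1, a further repressor of the same family, had 4964 and 3330 by the 1 measured probe set, a log2 difference of -0.58. Its other probe set had 31.4 and 7.62, below the floor on both. Mxd1 and Mxi1 thus stood on opposite sides of 0, each within 2-fold.

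Mnt, a repressor present in resting and dividing cells alike, had 1024 in serum culture and 841 in co-culture, a log2 difference of -0.28. Its second probe set was below the floor, at 4.51 and 2.61. Mlx, the alternative partner to MAX, had 784 and 795 by its brightest probe set and 191 and 227 by the second. Those log2 differences were 0.02 and 0.24. Both genes stayed within 0.60, the SD between probe sets of a gene. Scaling to the spikes moved the median of all genes from -0.06 to -0.26, a shift applied to all genes alike. The difference of Mlx is smaller than that shift. The share of 2-fold calls over all genes that were higher was 31.2% on the deposited scale, 17.0% with the spikes, 41.5% with the pseudocount and 55.9% with the floor at percentile 25.

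**Figure D2:**
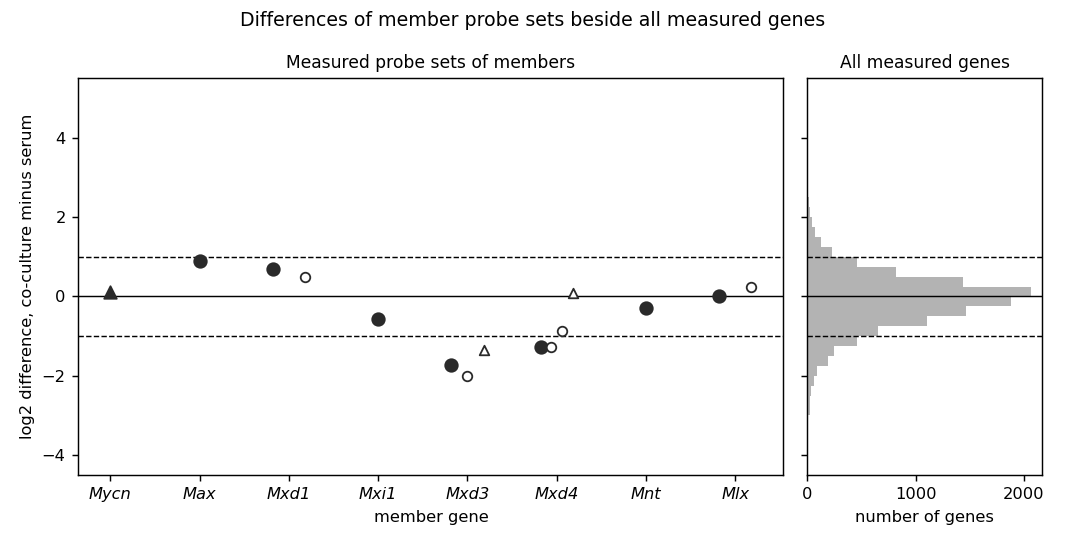
Log2 difference, co-culture minus serum, of the 15 measured member probe sets (left; filled symbols are the brightest of a gene, triangles have 1 of the 2 values at the floor) and of all 11559 measured genes (right, histogram in bins of 0.25). Dashed lines mark 2-fold. The 3 Mxd3 probe sets and 2 of the 4 Mxd4 probe sets lie below the lower line, and no member lies above the upper one.

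Of the other E-box factors around the network, 7 of 9 were measured. Of these 0 were higher and 1 was at least 2-fold lower, beside 4.52% and 9.97% of all measured genes. The list's median log2 difference was -0.01. Mlxipl, the carbohydrate-response factor that pairs with MLX, was the one that was lower, with 1176 in serum culture and 587 in co-culture. This lies at the 2-fold limit itself, and the call ended under 4 of the 9 alternatives (the pseudocount, subtraction of the median difference, quantile normalization, and removal of probe sets of shared sequence, which leaves it no measured probe set). Mlxip, its relative that senses glucose phosphate, had 1278 and 1382, a log2 difference of 0.11. Mga, a large MAX partner of a repressive Polycomb complex, had 4319 and 5527, a log2 difference of 0.36, with other probe sets up to 1.83. Of the genes that MLX pairs induce on glucose and lipid supply, 9 of 10 were measured, 1 was lower and 0 higher. That gene was Acacb, the mitochondrial acetyl-CoA carboxylase (1189 and 440, 2.70-fold lower). Txnip, an inhibitor of glucose uptake, had 4275 and 3684, a log2 difference of -0.21 but 0.87 by another probe set. Arrdc4, its relative, had 3.08 and 73.3, which is at least 1.65-fold higher. With the floor at percentile 25 its log2 difference was 2.51, and with the pseudocount 2.23. The call for Arrdc4 thus depends on where background is set. Of the 13 measured probe sets of these MLX-induced genes 1 was higher and 1 lower, beside 8.16% and 8.06% of all measured probe sets. The higher one was of Acaca (1.60 on the log2 scale), whose brightest probe set had -0.19.

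The co-regulators that MYC and MXD proteins recruit were measured, and by their brightest probe sets they lay within 2-fold. Of all genes 63.5% were measured, and of those 4.52% were higher and 9.97% lower. Of all measured probe sets 8.16% were higher and 8.06% lower. All 16 MYC co-activators with a probe set were measured, 0 were higher and 0 lower, with a median of -0.06 and a range from -0.67 to 0.69. Trrap, the scaffold of the acetyltransferase complexes, had 1063 in serum culture and 702 in co-culture. By single probe sets, 7 of the 39 measured for the co-activators were at least 2-fold higher and 0 lower, among them 1 of the transcriptional cofactor Hcfc1 at 2.52 on the log2 scale. All 14 genes of the SIN3 and histone deacetylase complex with a probe set were measured, with 0 higher, 0 lower and a median of 0.14. Of their 34 measured probe sets 3 were higher and 2 lower. The histone chaperone Rbbp4 had 0.13 by its brightest probe set but 1.58 by the mean over its probe sets, which made it higher. Sin3a, the scaffold that MXD proteins bind directly, had 237 and 364, a log2 difference of 0.62, though another of its probe sets had -0.48. Of 18 genes that control the turnover of MYC protein, 18 were measured and 0 passed 2-fold by the brightest probe set, with a median of 0.02. Of their 48 measured probe sets 7 were higher and 1 lower, and Skp2, a further MYC ubiquitin ligase subunit, passed 2-fold once probe sets of shared sequence were left out. Fbxw7, the ubiquitin ligase subunit that marks MYC for destruction, had 988 and 1490, a log2 difference of 0.59.

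Genes that MYC is known to activate were measured, with Myc and Mycn at or near background and Mycl above the floor on both arrays. Any link between these levels was not tested. All 47 with a probe set were measured, 46 had an intensity of 200 or more on both arrays, and 0 were at least 2-fold higher or lower by the brightest probe set. Of all 18193 genes 63.5% were measured and 7534 had 200 or more on both arrays. Of all measured genes 4.52% were higher and 9.97% lower. Of the list's 104 measured probe sets 4 were higher and 0 lower, beside 8.16% and 8.06% of all measured probe sets. The phosphatase Cdc25a passed 2-fold by the mean over its probe sets (1.04). The list's median log2 difference was 0.07, with a range from -0.61 to 0.75. Odc1, the first enzyme of polyamine synthesis, had 9297 in serum culture and 10760 in co-culture. Ncl, the nucleolar protein nucleolin, had 11731 and 13683, a log2 difference of 0.22, with other probe sets from -0.14 to 1.36. The exception in intensity was Tert, the telomerase reverse transcriptase, with 35.4 and 45.1. Many of these genes also serve growth and ribosome production in dividing cells at large.

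Genes listed here as repressed by MYC spread further in both directions. Of 25 with a probe set 23 were measured, 5 were at least 2-fold higher (21.7%) and 5 lower (21.7%), beside 4.52% and 9.97% of all measured genes, and the median was -0.04. The even split depends on the setting: it was 4 higher and 8 lower with the spikes, 4 and 3 with the floor at percentile 75, and 3 and 5 without probe sets of shared sequence. Gadd45b, a stress-induced growth arrest gene, was 6.37-fold higher in co-culture (694 and 4419), and its measured probe sets ranged from 2.26 to 2.67 on the log2 scale. Cdkn1a, the p21 inhibitor of cyclin-dependent kinases, was 3.40-fold higher (1390 and 4727), with 1.53 on the log2 scale by its other probe set. Hes1, a repressor induced by Notch, was at least 3.30-fold higher (28.9 and 146). Ndrg1, a gene of differentiation and low oxygen, was 2.96-fold lower (4461 and 1507), while another probe set of it had a log2 difference of 0.10. The other lower genes were Cdkn2c (477 and 170, 2.81-fold), Gadd45a (1533 and 592, 2.59-fold), Itga6 (2.13-fold) and Cebpa (2.09-fold). The other probe set of Itga6 went the other way, with 0.77 on the log2 scale. The other higher genes were Id2 (2.48-fold) and Gadd45g, just past the limit (521 and 1043). Genes named Gadd45 and Cdkn thus went in both directions.

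**Figure D3:**
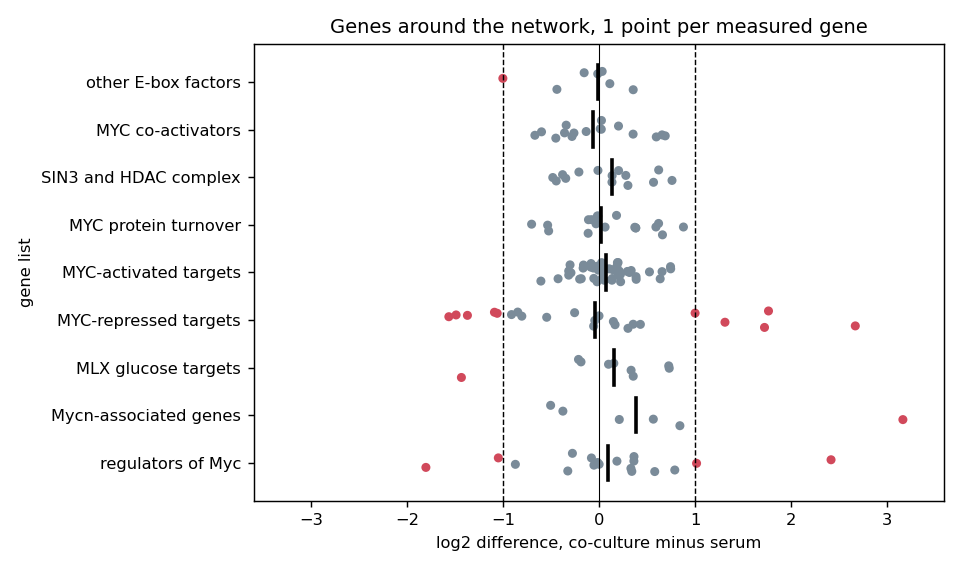
Log2 difference, co-culture minus serum, of each measured gene in the 9 lists around the network (points; red marks 2-fold or more) with the median of each list (black bar) and 2-fold marked by dashed lines. The 47 MYC-activated targets all lie between -0.61 and 0.75, and the 23 MYC-repressed targets run from -1.57 to 2.67.

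Of 14 genes tied to Mycn in the embryo or in neuroblastoma 6 were measured, 1 was higher and 0 lower, with a median of 0.39. Lin28a, an RNA-binding protein of early embryonic cells, was 8.98-fold higher (59.4 in serum culture and 534 in co-culture), and both its measured probe sets were past 2-fold (3.17 and 3.47 on the log2 scale), though its log2 difference was 0.46 with the floor at percentile 75. Ddx1, an RNA helicase gene next to Mycn that is often amplified with it, had 7587 and 5842, a log2 difference of -0.38. Of 19 genes that control Myc transcription 18 were measured, 2 were higher and 2 lower, with a median of 0.09. Stat3, a cytokine-activated factor, was 5.34-fold higher (129 and 691; 0.67 on the log2 scale by the least changed probe set). Foxo1, which opposes growth signals, was 3.49-fold lower (743 and 213; -0.28 by the least changed probe set). Lef1, a partner of beta-catenin, was 2.02-fold higher (2275 and 4600), but another probe set had -0.30. Bcl6, a repressor of germinal centre B cells, was 2.07-fold lower (790 and 381). The calls of these regulators were not stable: Bcl6 lay within 2-fold with the median subtracted and with quantile normalization, Lef1 with the spikes and with the mean over probe sets, Foxo1 without probe sets of shared sequence, and Stat3 and Foxo1 with the floor at percentile 75. Over the 156 distinct measured genes of the 9 lists, 8 were higher (5.13%) and 9 lower (5.77%), with a median of 0.03, beside 4.52%, 9.97% and -0.06 for all measured genes.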

How the data were processed

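Column-purified total RNA of 2 samples was copied from a T7-oligo(dT) primer and labelled with biotin, per the labels' protocols. The authors deposited 1 linear intensity per probe set and array. How the authors corrected background and normalized is not given in the sources used here. The means after trimming 2% at each end are 500.003 on both arrays, while the medians are 36.9 and 50.7.

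Genes were assigned from the array's platform annotation. Symbols were brought up to date by gene number with RefSeq (GRCm38.p6), which matched 34741 of 34945 probe sets with 1 symbol. A further 932 with several symbols, 9160 with none and 64 controls named no gene. Values below the floor were raised to it before log2 was taken, and each gene took its probe set of highest mean log2 intensity. Where 1 of the 2 values is at the floor, the fold bounds the true one from below (at least N-fold).

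The members and all gene lists were chosen with earlier results of these data known, among them that Myc was near background. The naming rule took every member probe set, up to 4 genes past 2-fold from each of 9 network lists, and Mycl, Mga, Mlxip, Mlxipl, Txnip, Arrdc4, Odc1, Ncl, Cdkn1a, Ddx1 and Sin3a. Trrap, Hcfc1, Rbbp4, Fbxw7, Skp2, Cdc25a, Tert, Ptprc, Pax5, Slc4a1, Epcam and the endothelial markers were named after their values were seen. So were Ebf1, Blk, Cd53, Coro1a, Klf1, Cldn3, Esrp1, Acaca, Id2, Gadd45g, Cdkn2c, Gadd45a, Itga6 and Cebpa. No gene was named for a likeness to a member, since 2 arrays give each gene 1 difference. Lists of T cell, macrophage, fibroblast, epithelial and erythroid markers had 1 of 9, 3 of 10, 5 of 9, 3 of 10 and 2 of 6 genes measured. The steps were tested on simulated data. Python 3.11.15 with pandas 2.3.3 and numpy 2.4.6 was used.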

Additional observations from a re-analysis of the deposited data

How the results depend on the processing

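The 9 alternatives were floors at percentile 25, at percentile 75 and at 200, a pseudocount of 16, subtraction of the median difference, quantile normalization, scaling to the hybridisation spikes, the mean over probe sets, and the removal of probe sets with an identifier for shared sequence. Between 6 and 9 members were measured, and the median log2 difference of the members ran from -0.48 to -0.07. Mxd3 was at least 2-fold lower under all 9 and Mxd4 under 8. The count of members lower became 1 with the mean over probe sets, which takes in the Mxd4 probe set that lies near background. The count of members higher became 1, Mycn, with the floor at percentile 25 and with the pseudocount. Of the genes of the network lists, 5 in place of 8 were higher with the floor at percentile 75, since that floor, at 389, left Hes1 unmeasured and cut the log2 differences of Lin28a and Stat3 to 0.46 and 0.83. Of 162 counts of single lists under the alternatives, 139 stayed within 1.5 times and 23 did not. The 139 take in counts that were 0 and stayed 0. Over all measured genes, 2029 were higher and 1599 lower with the floor at percentile 25, 853 and 1203 with the pseudocount, 143 and 397 with the floor at percentile 75, 218 and 656 with the floor at 200, and 325 and 1590 with the spikes, against 523 and 1152. No paired analysis was possible because each group has 1 array, and for the same reason no array could be left out. Signal near background limits Myc and Mycn, for which these arrays give bounds.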
